A study of Mus musculus with 12 samples.

Results

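The genes of the cytosolic ribosomal proteins were taken from the count table of mouse colon as the protein-coding genes whose symbols begin with Rpl, Rps or Rplp followed by a digit, leaving out the Rps6k kinases and Rps3a1 and Rps26. This gave 91 of 54532 genes, of which 43 were named for proteins of the large subunit, 28 for proteins of the small subunit, 3 for the stalk, 7 for paralogs and 9 for retrogenes or pseudogenes, and 1 (Rps19bp1) encodes a protein that binds Rps19 and is no ribosomal protein. Bulk mRNA was sequenced from colon of wild-type male C57BL/6J mice that were 5 weeks old at the start, in 4 groups of 3 libraries. The control group received no dextran sulfate sodium (DSS), a chemical that injures the colonic epithelium and causes colitis. The model group received DSS, the Rhy group DSS and rhynchophylline, an alkaloid of the herb Uncaria, and the DXM group DSS and dexamethasone, a glucocorticoid, at 4 mg per kg. Rhy was given in the study at 2, 4 and 8 mg per kg, and the labels do not say at which dose the sequenced mice were treated.

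The ribosome joins a small subunit, which reads the mRNA, and a large subunit, which forms the peptide bond, and nearly every one of their proteins is encoded by a single expressed gene. These mRNAs are among the most abundant of any cell. Most begin with a tract of pyrimidines at the 5′ end (the TOP motif), through which mTORC1 and the protein Larp1 control their translation, and their genes left many processed pseudogenes in the genome, which are intronless copies of the mRNA.

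The position of the annotated start was examined first, since the pyrimidine tract lies there. RefSeq start sequences (GRCm38.p6) were found for 63 of the 91 members. A run of at least 6 C or T bases that began with C no more than 5 bases from a listed start was present in 24 of 54 subunit and stalk genes with a sequence (44.4%) and in 11.9% of 27025 mouse genes. Shorter runs, runs farther from a listed start and runs at starts not listed were not counted. The share of genes with a TOP motif therefore cannot be read from this count. Among 7 paralogs 1 had such a run. The windows below are shown to let members with the run be compared with 3 paralogs. Of these, Rpl22l1 carries it and Rps27l and Rpl7l1 do not, their longest runs having 5 bases and 1 base. No such run was found at the listed start of Rpl22, the parent of Rpl22l1. That start lies upstream of the Rpl22 gene of the count table, which begins at chr4:152325742. Its letters may therefore not be those of the counted 5′ end. Each window has 30 bases, in the direction of transcription, with the longest run in capitals.
Rps27, chr3:90213634-90213663, minus strand: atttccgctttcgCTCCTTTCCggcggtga
Rplp2, chr7:141447636-141447665, plus strand: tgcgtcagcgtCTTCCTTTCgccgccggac
Rps6, chr4:86857353-86857382, minus strand: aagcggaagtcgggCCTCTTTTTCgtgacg
Rps21, chr2:180257364-180257393, plus strand: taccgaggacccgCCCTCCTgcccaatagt
Rpl22, chr4:152324421-152324450, plus strand: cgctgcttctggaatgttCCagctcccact
Rpl22l1, chr3:28805493-28805522, plus strand: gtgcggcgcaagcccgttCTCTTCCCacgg
Rps27l, chr9:66946071-66946100, plus strand: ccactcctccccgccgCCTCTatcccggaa
Rpl7l1, chr17:46782642-46782671, minus strand: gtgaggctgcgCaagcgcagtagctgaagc

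In the sequence from 250 bases before to 50 bases after the start, CCGGAA, the core recognised by ETS factors, occurred on either strand in 29 of 54 subunit and stalk genes (53.7%) against 16.7% of all genes. AAGATGG occurred in 14.8% against 7.28%, the E-box CACGTG in 11.1% against 8.09% and TATAAA in 11.1% against 15.7%. A match is a description of the letters and not a bound site.

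The libraries held between 14346478 and 17749716 counts. Mitochondrially encoded genes took between 6.33% and 25.7% of them and the groups overlapped in it. Hoxb13, a gene of the distal colon, was under 5 CPM (counts scaled to 1000000 a library) in control 3, model 3 and Rhy 1 only. The libraries of model 1 and model 2 were closer to each other than any other pair, with a common dispersion of 0.00201 against 0.0604 to 0.351 in the 65 other pairs. They differed by over 0.3 on the log2 scale in 9 members, among them genes with few counts and genes that share sequence with others, so that this says nothing on whether they share RNA. They were kept as separate libraries as labelled, and counts of members are given below also with both merged. The labels do not say whether the libraries of a group came from separate mice, so p-values measure the spread between libraries.

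Ribosomal protein mRNA was a larger share of the colon transcriptome in every library from a DSS-treated mouse than in any control. Of the counts on nuclear protein-coding genes, the members held 5.16, 4.48 and 4.18% in the control libraries. They held 5.85, 5.90 and 5.81% in the model libraries, 6.06, 7.80 and 6.20% in the Rhy libraries and 6.27, 7.30 and 7.53% in the DXM libraries. The lowest DSS library thus lay above the highest control, and all 6 treated libraries lay above the model group. The model group was the tightest of the 4, with a mean of 5.86% ± 0.0424 (SD, n = 3). This SD includes model 1 and model 2, the closest pair of libraries (common dispersion 0.00201), and may understate the spread between libraries. As a share of all counts, which includes the mitochondrial genes, the values were 3.63 to 3.90% in controls, 4.93 to 5.03% in the model, 4.48 to 6.39% with Rhy and 4.50 to 6.72% with DXM, and 1 library of each treated group (Rhy 1 and DXM 1) fell below the model group. In these 2 libraries the mitochondrial share was 23.8 and 25.7%, the highest of all. In bulk tissue, more cells rich in these mRNAs and more of these mRNAs per cell cannot be told apart.

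**Figure D1:**
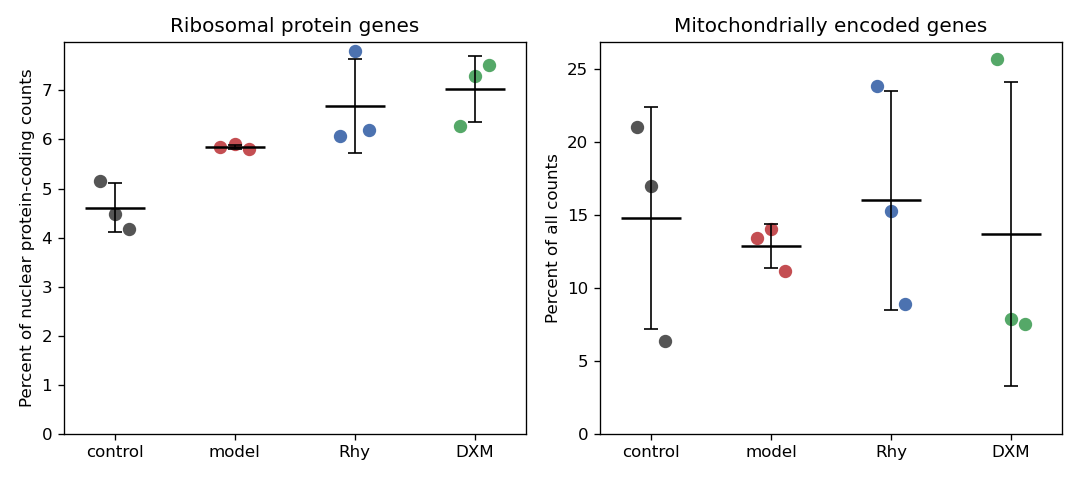
Percent of nuclear protein-coding counts held by the 91 ribosomal protein genes (left) and percent of all counts on mitochondrially encoded genes (right), each point a library, with the group mean (line) and SD (bar, n = 3). Left, the control libraries sit between 4.18 and 5.16% and all DSS libraries between 5.81 and 7.80%; right, the groups overlap.

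Gene by gene, 85 members passed the filter on low counts and were tested with 16904 genes in all. No member reached an adjusted p under 0.05 in any comparison by edgeR's quasi-likelihood test with Benjamini-Hochberg adjustment, and neither did any other gene (0% of all genes tested in each of the 5 comparisons and in the test of any difference among the 4 groups). The counts below therefore use an unadjusted p under 0.05 and the separation of groups, each beside its share over all genes, and describe a direction without a call for any single gene. In the test of any difference among the groups, 12 of 85 members (14.1%) had an unadjusted p under 0.05 against 11.5% of all genes.

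In the model against the control group, 69 of 85 members were higher and 16 lower, and the median log2 fold change was 0.256 against 0.00635 over all genes. An unadjusted p under 0.05 was reached by 10 members higher (11.8%, against 5.11% of all genes) and by 1 lower (4.51% of all genes), and 32 were higher with no overlap between the groups (10.4% of all genes). The difference leaned on control 3: without it the median was 0.0804 and 50 members were higher. Without model 3 only 2 members had an unadjusted p under 0.05 (2.35%, against 7.97% of all genes in either direction), and with model 1 and 2 merged 5 did (5.88%, against 4.99%).

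In Rhy against the model group, 78 of 85 were higher and the median was 0.245 (all genes -0.0148). Here 4 members (Rpl22, Rps21, Rpl36a and Rpl39) had an unadjusted p under 0.05, all higher (4.71%, against 1.74% of all genes higher and 1.98% lower), and 29 lay above the model group without overlap (5.51% of all genes). In DXM against the model, 72 were higher with a median of 0.219 (all genes -0.0149), 9 had an unadjusted p under 0.05, all higher (10.6%, against 4.89% of all genes higher and 2.8% lower), and 21 were higher without overlap (10.4% of all genes). With model 1 and 2 merged these became 0 members for Rhy (1.63% of all genes in either direction) and 2 for DXM (2.35%, against 4.24%). Without Rhy 2 the Rhy count was 0 and the median 0.151, and without DXM 3 the DXM count was 0 and the median 0.156. Both comparisons share the model libraries.

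Against the control group the treated groups stood further apart. With Rhy, 81 of 85 members were higher, the median was 0.499, 40 had an unadjusted p under 0.05, all higher (47.1%, against 6.46% of all genes higher and 5.09% lower), and 37 did not overlap the controls (7.5% of all genes). With DXM, 81 were higher, the median was 0.446, 28 had an unadjusted p under 0.05, all higher (32.9%, against 8.68% higher and 10.2% lower), and 29 did not overlap (9.77% of all genes). The smallest adjusted p of a member (edgeR quasi-likelihood, Benjamini-Hochberg) was 0.364 with Rhy and 0.128 with DXM. Without Rhy 2 the Rhy count was 15 (17.6%, against 6.87% of all genes in either direction). Without DXM 3 the DXM count was 10 (11.8%, against 9.48%), and without control 3 it was 15 (17.6%, against 20.2%). With only the 2 groups compared in the fit, 11 members had an unadjusted p under 0.05 with Rhy (13.1%, against 6.36% of all genes) and 10 with DXM (11.8%, against 13.9%), the latter share being below that of all genes. Rhy 2 was the highest library for 48 of the 85 members and DXM 3 for 21, and control 3 the lowest for 47.

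**Figure D2:**
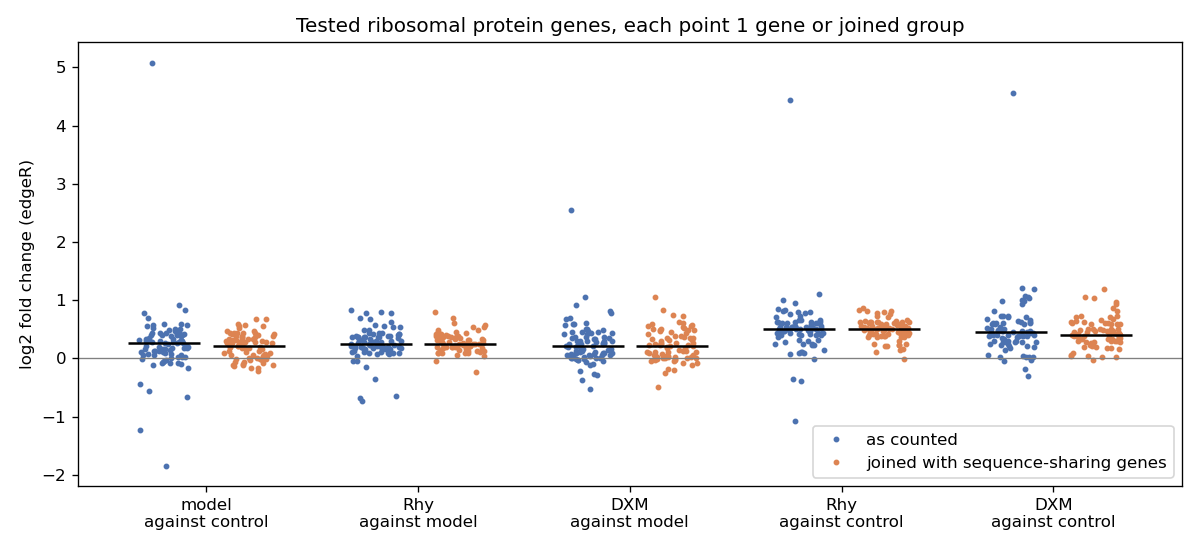
Log2 fold change (edgeR) of the tested ribosomal protein genes in 5 comparisons, each point 1 gene as counted (blue, 85 genes) or 1 group joined with the genes sharing its sequence (orange, 79 groups), with the median as a line. Medians are above 0 in all 5 comparisons, from 0.219 to 0.499 as counted, and single genes reach 5.08 as counted, whereas no joined group exceeds 1.19.

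The stalk proteins form the lateral protuberance of the large subunit that recruits translation factors. Rplp1, the member with the highest level per length (mean 3412 FPKM, which corrects for gene length and depth), stood at 1552, 1299 and 1131 CPM in control, 1629, 1633 and 1598 in the model, 1724, 2166 and 1718 with Rhy and 1793, 2053 and 2434 with DXM. Each step from control to model to either treatment was free of overlap. The log2 fold change of DXM against control was 0.66 ± 0.22 (SE; adjusted p = 0.17, edgeR quasi-likelihood). Rplp2 was at 349, 577 and 455 CPM in control and at 762, 726 and 741 in the model, a log2 fold change of 0.69 ± 0.28 (adjusted p = 0.49, edgeR), with wide spread under Rhy (888, 992 and 530) and DXM (805, 629 and 488). Rplp0 was higher in the model (1634, 1657 and 1604 CPM) than in control (1061, 1434 and 1381), and the DXM libraries (1193, 1586 and 1252) all lay below the model group. Joined with the genes that share its sequence, however, Rplp0 gave 2058, 2043 and 1938 CPM in the model and 1662, 2009 and 1667 with DXM, which overlap.

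Of the small subunit, 26 of 28 tested genes were higher in the model than in control and 28 of 28 higher with each treatment than in control. Rps21 was the member with the smallest p in both comparisons of a treated group with control. It was at 290, 235 and 224 CPM in control, 346, 335 and 333 in the model, 437, 521 and 393 with Rhy and 488, 428 and 511 with DXM. The 4 groups overlapped only between Rhy and DXM. Its log2 fold change was 0.85 ± 0.19 for Rhy against control (adjusted p = 0.36, edgeR) and 0.93 ± 0.19 for DXM against control (adjusted p = 0.13, edgeR). Rps6, the substrate of the S6 kinases downstream of mTORC1, was at 668, 638 and 660 CPM in control and 825, 825 and 930 in the model, with 908, 1012 and 874 under Rhy. Under DXM it was at 645, 1042 and 1086, so that DXM 1 lay among the controls.

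Rps14 and Rps19 are the small subunit proteins whose loss in people causes a failure of red cell formation. Rps14 was at 911, 896 and 926 CPM in control, 1040, 1023 and 1226 in the model, 1453, 1538 and 1232 with Rhy and 1315, 1393 and 1812 with DXM, without overlap of control, model and either treatment. Rps19 was at 426, 576 and 473 in control, 683, 657 and 875 in the model and 562, 575 and 575 with DXM, so that the counts on the Rps19 symbol itself lay below the model group and within the control range with DXM. Joined with the genes that share its sequence (the joining is described below), Rps19 gave 525, 590 and 542 CPM in control, 797, 781 and 897 in the model and 816, 842 and 857 with DXM, so that DXM overlapped the model and lay above control. Rps27a, made as a fusion with ubiquitin, was at 355, 215 and 404 CPM in control and 545, 939 and 768 with DXM, a log2 fold change of 1.21 ± 0.34 (adjusted p = 0.13, edgeR).

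Of the large subunit, 31 of 43 tested genes were higher in the model than in control, and 40 of 43 higher with each treatment than in control. Rpl5 and Rpl11 hold Mdm2 together with the 5S RNA when ribosome assembly fails. Rpl5 was at 359, 593 and 675 CPM in control, 697, 701 and 884 in the model, 846, 992 and 920 with Rhy and 656, 1038 and 999 with DXM. Rpl11 was at 763, 585 and 518 in control and 693, 648 and 767 in the model, which overlap, and at 914, 967 and 808 with Rhy and 772, 891 and 1176 with DXM, both above the model group. Neither passed an adjusted p in any comparison (edgeR quasi-likelihood).

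Rpl39, Rpl38 and Rpl22 overlapped between control and model. Rpl39, a short protein near the exit of the peptide tunnel, was at 569, 461 and 312 CPM in control and 438, 458 and 433 in the model. It was at 460, 802 and 1047 with Rhy and 539, 1004 and 1223 with DXM, so that both treated groups lay above the model group and 1 library of each lay near it. The log2 fold change against the model was 0.80 ± 0.36 with Rhy and 1.06 ± 0.36 with DXM (adjusted p = 1.00 and 0.62, edgeR). Rpl22 was at 323, 315 and 362 CPM in the model, 435, 516 and 500 with Rhy and 350, 497 and 515 with DXM, while control libraries were at 351, 328 and 279, so that Rhy but not DXM lay above the model group. Rpl38, which some mRNAs of body patterning need for translation, was at 377, 360 and 333 CPM in the model, 387, 670 and 585 with Rhy and 507, 567 and 665 with DXM, but control 1 was at 591. Rpl10, which completes the large subunit, was at 793, 751 and 681 CPM in control and 888, 879 and 895 in the model, which did not overlap, and at 913, 1152 and 1025 with Rhy and 794, 1106 and 1197 with DXM. Rpl41 went from 1397, 1088 and 1167 in control to 1452, 1467 and 1570 in the model, and spread from 1125 to 1929 with Rhy and from 841 to 1578 with DXM, both overlapping the model. Rpl13a gave 23.4 to 44.5 CPM with all groups overlapping. Of its exonic bases 35.4% lie in exons of other genes, among them Gm45713, so its level is uncertain. The effect of this overlap on its counts was not tested.

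Paralogs are second genes for a ribosomal protein, usually of restricted expression. Rpl22l1 was at 43.4, 49.9 and 56.1 CPM in control, 63.2, 66.1 and 68.3 in the model, 58.6, 62.3 and 95.1 with Rhy and 39.9, 135 and 124 with DXM. The model lay above control without overlap, and DXM held the lowest library and the highest. Rpl7l1 was at 36.1, 43.8 and 64.6 CPM in control and 69.8, 64.9 and 82.0 in the model (log2 fold change 0.58 ± 0.22, adjusted p = 0.49, edgeR). Rps27l, a target of p53, was at 121 to 150 CPM in control, 144 to 180 in the model, 185 to 236 with Rhy and 135 to 245 with DXM. The ratio of paralog to parent was compared for 4 pairs (Rps27l to Rps27, Rpl22l1 to Rpl22, Rpl7l1 to Rpl7 and Rpl36al to Rpl36a) over 20 tests. None passed, with a smallest exact two-sided permutation p of 0.1, which is the smallest that 3 against 3 libraries allow, and a smallest adjusted p of 0.5 by exact permutation. Rpl3l, Rpl39l and Rpl10l were too low to test.

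Rpl26 and Rpl30, the members with the largest log2 fold changes in any comparison, shared their sequence with a pseudogene that held many counts. Rpl26 (chr11:68901583-68906989, plus strand) had the largest log2 fold change of model against control, 5.08 ± 1.87 (adjusted p = 0.48, edgeR). It was at 9.06, 3.62 and 5.49 CPM in control, 307, 297 and 10.1 in the model, 370, 10.1 and 11.8 with Rhy and 404, 10.8 and 13.0 with DXM. Thus 4 libraries were at 297 CPM or more and the other 8 at 13.0 or less, with at least 1 library of each kind in every DSS group. The processed pseudogene Gm15772 (chr5:3236431-3236868) was at 340 to 442 CPM in those 4 libraries and at 527 to 1274 in the other 8, and the sum of both genes ranged only from 532 to 1284 CPM.

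Gm15772 matched the Rpl26 mRNA over 438 bases with 99.5% identity and 2 substitutions, C305T and T416C, numbered from 1 at the 5′ end of that mRNA, with the Rpl26 base first. Both lie in the coding sequence, in exon 3 of 4, at chr11 positions 68903187 and 68903298 (GRCm38). The stretches around each substitution are shown because they are the only letters by which a read could be told apart within the shared sequence, and the differing base is in capitals.
Rpl26 around C305T: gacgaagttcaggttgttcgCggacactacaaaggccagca
Gm15772 around C305T: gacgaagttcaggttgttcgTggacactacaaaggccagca
Rpl26 around T416C: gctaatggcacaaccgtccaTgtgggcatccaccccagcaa
Gm15772 around T416C: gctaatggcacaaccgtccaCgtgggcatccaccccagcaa

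Rpl30 (chr15:34440505-34443640, minus strand) had the largest fall by value in model against control, a log2 fold change of -1.85 ± 1.01, and the largest increase by value in DXM against the model, 2.55 ± 1.04 (adjusted p = 0.58 and 0.64, edgeR). It was at 301, 322 and 6.31 CPM in control, 62.8, 101 and 10.8 in the model, 84.6, 95.3 and 119 with Rhy and 173, 406 and 446 with DXM. Its pseudogene Gm12191 (chr11:49678710-49679057, minus strand) differed by 1 substitution over 348 bases, G584A on the Rpl30 mRNA, in the coding sequence of exon 3 of 5 at chr15 position 34442706. Control 3 and model 3, the libraries lowest for Rpl30, gave 277 and 390 CPM on Gm12191. The sum of both genes ranged from 283 to 648 CPM.
Rpl30 around G584A: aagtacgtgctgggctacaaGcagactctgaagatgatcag
Gm12191 around G584A: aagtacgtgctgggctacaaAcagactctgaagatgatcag

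**Figure D3:**
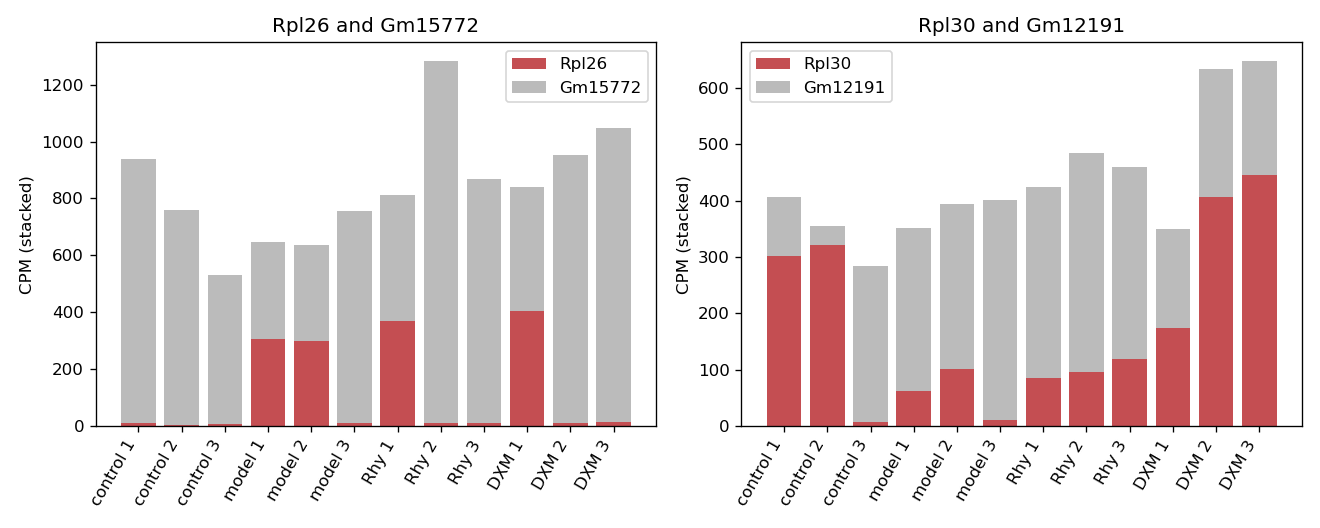
Stacked CPM of Rpl26 with its processed pseudogene Gm15772 (left) and of Rpl30 with Gm12191 (right) in each of the 12 libraries. Rpl26 is at 297 CPM or more in 4 libraries and at 13.0 or less in 8, while the summed bars range from 532 to 1284 (left) and from 283 to 648 CPM (right).

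Sharing of this kind was common among the members. Of 89 members with an annotated transcript (GENCODE M21), only 12 had no 100-base stretch of mRNA repeated exactly in another gene, 44 had up to 50% of their stretches repeated and 33 had more. For 72 members the gene outside the set that shared at least 50 such stretches and held the most counts was aligned, and 19 were identical over the alignment. In 14 pairs the other gene held more counts than the member. Rps2 averaged 3.41 CPM against 645 on Rps2-ps13, Rpl34 9.82 against 525 on Rpl34-ps1, Rps18 36.0 against 502 on Gm11361 and Rps10 4.63 against 217 on Rps10-ps2. Levels of these single genes, and of Rpl21, Rpl29 and Rpl36al, the lowest per length among tested members (mean 1.19, 1.31 and 0.542 FPKM), are therefore uncertain, and how reads with several positions were counted is not given in the sources used here.

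The members were then joined with every gene that shared at least 50 stretches, which gave 85 groups of genes, and the whole table was fitted again. Of the 79 groups tested, 0 varied by over 5-fold between the highest and lowest library, against 6 of the 85 members as counted, and the number with a mean under 100 CPM went from 17 to 6. Joined, Rpl26 had a log2 fold change of -0.13 ± 0.26 in model against control and Rpl30 0.10 ± 0.24 (adjusted p = 0.90 and 0.92, edgeR). The Rps2 group of 22 genes gave 381, 523 and 671 CPM in control and 768, 777 and 963 in the model, without overlap. It gave 816, 715 and 600 CPM with Rhy, which overlapped the model group, and 503, 709 and 565 with DXM, all below the model group. In DXM against model it was the 1 joined group lower without overlap, while 24 were higher without overlap (10.4% of all genes). Rps27 joined with the retrogene Rps27rt, the member with the second largest fall by value as counted in model against control (-1.23 ± 0.56), gave a log2 fold change of -0.12 ± 0.29.

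The direction of the members as a whole was not altered by joining. The median log2 fold change of the groups was 0.216 for model against control, 0.255 for Rhy against model, 0.218 for DXM against model, 0.507 for Rhy against control and 0.409 for DXM against control. In model against control 62 of 79 were higher, in Rhy against model 77, in DXM against model 65, and in each treated group against control 78. An unadjusted p under 0.05 was reached by 8, 4, 10, 41 and 28 groups in that order, all of them higher, against 5.14, 1.71, 4.86, 6.42 and 8.76% of all genes, and 0 groups passed the adjusted threshold (edgeR quasi-likelihood).

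Genes that build ribosomes were also examined. All 40 tested genes of ribosome biogenesis (nucleolar assembly factors and RNA polymerase I) were higher in the model than in control, their median difference being 0.49 on the log2 scale, and 13 had an unadjusted p under 0.05 (against 5.11% of all genes higher). Gar1, of the complex that makes pseudouridine in rRNA, was 0.99 ± 0.27 log2 higher and Nhp2, of the same complex, 1.00 ± 0.28 (adjusted p = 0.46 for both, edgeR). In Rhy against model 34 of the 40 were higher, with a median of 0.239, and in DXM against model 26 were, with a median of 0.136. Their summed level was 1120 to 1426 CPM in control, 1596 to 1937 in the model, 1555 to 2355 with Rhy and 1408 to 2163 with DXM. Of 77 tested mitochondrial ribosomal proteins, 69 were higher in the model than in control (median 0.312, 18 with an unadjusted p under 0.05, against 5.11% of all genes), and in DXM against the model 31 were (median -0.0452).

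Other TOP mRNAs, chiefly translation factors, had a median of 0.104 in model against control (21 of 25 higher, 3 with an unadjusted p under 0.05, against 5.11% of all genes), 0.0911 in Rhy against model and -0.0854 in DXM against model. Among them Hnrnpa1 was 0.85 ± 0.21 log2 higher in the model and the histone chaperone gene Nap1l1 0.79 ± 0.26 (adjusted p = 0.46 and 0.48, edgeR). Nuclear subunits of the respiratory chain, which like the members have short mRNAs, had a median of -0.0525 in model against control and 0.256 in Rhy against model, where 72 of 75 were higher. Of the 20 tested genes that control ribosomal protein synthesis, 10 were higher and 10 lower in the model, and Rptor, the mTORC1 subunit, had a log2 fold change of -0.75 ± 0.18 (adjusted p = 0.46, edgeR). No gene of these lists passed the adjusted threshold. Of the ribosomal proteins that the rule left out, Rack1 was 0.39 ± 0.21 log2 higher in the model, while Rpsa differed by 0.07 ± 0.36, Fau by 0.00126 ± 0.28 and Rps26 by -0.02 ± 0.21.

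**Figure D4:**
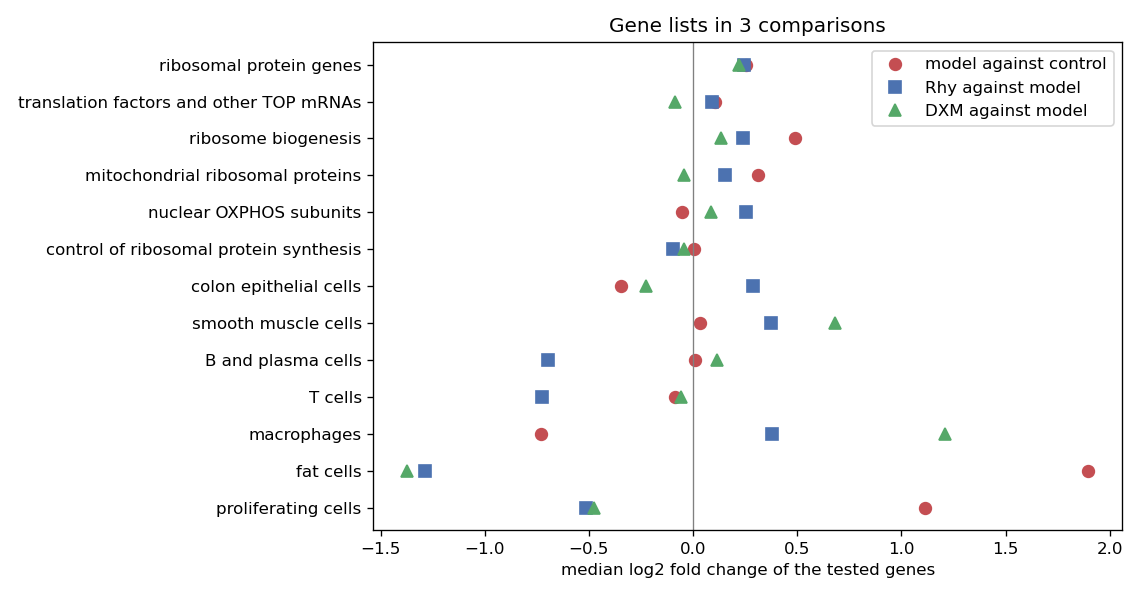
Median log2 fold change of the tested genes of each list in model against control (circles), Rhy against model (squares) and DXM against model (triangles). The ribosomal protein genes sit at 0.256, 0.245 and 0.219, close together, whereas proliferation genes sit at 1.11, -0.514 and -0.474.

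Markers of cell types differed between the groups too. All 10 proliferation genes were higher in the model (median 1.11, 6 with an unadjusted p under 0.05, against 5.11% of all genes higher), with a summed level of 205 to 363 CPM in control, 456 to 571 in the model, 233 to 554 with Rhy and 203 to 594 with DXM. Against the model their medians were -0.514 with Rhy and -0.474 with DXM, with 9 and 10 of 10 lower, but none had an unadjusted edgeR p under 0.05 and the summed levels overlapped. The markers of colon epithelium were present in every library, 33812 to 43896 CPM in sum in control and 20750 to 36652 in the DSS groups, and 12 of 13 were lower in the model. All 10 smooth muscle genes were higher in DXM than in the model (median 0.679), and 9 of 10 were higher with Rhy. The macrophage genes were higher in DXM than in the model too, 9 of 9 (median 1.21), and 9 of 9 were higher with Rhy (median 0.378). In the model, however, 8 of 9 macrophage genes were lower than in control (median -0.728). In DXM against control, 8 of 9 were higher, with a median of 0.541. The macrophage list summed to 202 to 390 CPM in control, 224 to 231 in the model, 79.7 to 435 with Rhy and 290 to 734 with DXM. The sum in the model thus lay within the control range. The median of B and plasma cell genes was -0.696 and that of T cell genes -0.723 in Rhy against model, with Rhy 1 the lowest library of both lists. B and plasma cell genes summed to 172, 748 and 692 CPM with Rhy and 349, 351 and 620 in the model, and T cell genes to 12.0, 34.8 and 36.5 with Rhy and 40.0, 41.0 and 53.5 in the model. Of 6 tested fat cell genes 5 were higher in the model by fold (median 1.90), but the list summed to 21.2, 21.9 and 232 CPM there and 17.1, 91.4 and 37.7 in control, so that model 3 alone was high. Of the pancreatic acinar list 1 gene could be tested and 3 to 5 were at 0 in every library of a group. The part of these cell types in the values of the ribosomal protein genes was not tested.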

How the data were processed

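Colon mRNA of 12 libraries (4 groups of 3) was analysed. The authors deposited raw counts per gene and FPKM per gene for the same libraries; per the submitters' processing notes, HISAT2 2.0.5, featureCounts 1.5.0-p3, DESeq2 1.16.1 and the mm10 build were used, while strand and multiple mapping are not given in the sources used here. The deposited FPKM were used for levels per length and for limma. Of 54532 genes 24548 had no count.

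Counts were tested with edgeR 4.0.16 (R 4.3.3) by the quasi-likelihood test, with TMM scaling, its filter on low counts (minimum 10), all 12 libraries in 1 fit on group means, and Benjamini-Hochberg adjustment over 16904 genes, at a threshold of 0.05. CPM are on the TMM-scaled totals, and ± is the SE of a log2 fold change unless SD is written. limma 3.58.1 and DESeq2 1.42.0 were alternatives. The test was checked on simulated data. Paralog ratios used exact permutation.

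RefSeq starts were read without chromosome 18, and genes with several starts had as many chances of a match. Member mRNAs (GENCODE M21) were searched for exact 100-base stretches in other genes, and joining members with such genes was chosen after seeing the data, as was leaving out the mitochondrial genes. The members and lists were chosen with earlier results of these data known. Genes to be named were those of stated role, the paralogs and the 3 highest and lowest per length. Also chosen were the 3 largest changes by value in each direction in the first 3 comparisons and the smallest p of each list. Not all of these are described above, and Rpl36, Rps15 and Rpl10-ps3 are among those left out. Other genes were named after their values were seen. The ratio of Rps4l was not run, since it is listed as a pseudogene. Over all genes, deviations of same-numbered libraries from their group means correlated at 0.210, 0.104 and 0.363 between control and model. Over all pairs of groups, 6 of 18 correlations were over 0.1, from -0.310 to 0.363. Model 1 and model 2 were the closest pair of libraries, and control 3 and model 3 both had Hoxb13 under 5 CPM. Whether the numbers pair the libraries therefore cannot be told from these values, and the labels give no pairing. Over the members alone 14 of 18 were over 0.1. The block is an alternative. Counting error covers no technical variation.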

Additional observations from a re-analysis of the deposited data

Results flagged for a closer look

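Among the genes outside the members that share their sequence and hold more counts than the member, only Rpl34-ps1 was above every control library in all DSS libraries. Its highest control library was at 441 CPM and its lowest DSS library at 442 CPM, and the difference was not tested. No member lay above the model group without overlap under one treatment and below it under the other. Groups of 3 libraries are too small for a test of single outlying libraries.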

How the results depend on the processing

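The medians of the members kept their sign under every alternative run, but their size moved with the scaling. With total counts alone, the median in Rhy against model was 0.103 with 67 members higher, against 0.245 and 78 with TMM scaling. In model against control it was 0.420, against 0.256. Relative to all genes, the members' median in Rhy against model was 0.256 higher with total counts and 0.260 higher with TMM scaling. Scaling by total counts alone moved the median of all genes from 0.00635 to 0.165 (model against control), from -0.0148 to -0.153 (Rhy against model) and from 0.0560 to 0.255 (DXM against control). Upper-quartile scaling moved the last to 0.152. Relative to all genes, the members' median in model against control was 0.256 higher with total counts and 0.243 higher with upper-quartile scaling, against 0.250 with TMM scaling.

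Numbers of members at an unadjusted p under 0.05 moved by over 1.5 times as follows; the cause was not tested. In model against control, the number went from 11 to 17 with total counts alone, to 7 with only the groups compared, to 6 with DESeq2 on those groups (1 at an adjusted p under 0.05), to 7 with limma on log2(FPKM + 1) and 7 on log2(FPKM + 0.1), and to 5 with model 1 and 2 merged. In Rhy against model, it went from 4 to 1 with upper-quartile scaling, 0 with total counts, 11 with only the groups compared, 11 with DESeq2, 19 with DESeq2 on the groups compared and 0 with model 1 and 2 merged. In DXM against model, it went from 9 to 14 with DESeq2, 19 with DESeq2 on the groups compared (4 at an adjusted p under 0.05), 2 with model 1 and 2 merged and 5 with a term for Hoxb13 under 5 CPM. In Rhy against control, it went from 40 to 11 with only the groups compared and 17 with DESeq2 on them, and DESeq2 on all libraries put 1 member past the adjusted threshold. In DXM against control, it went from 28 to 55 with total counts (median 0.643), 10 with only the groups compared and 11 with DESeq2 on them (1 adjusted), and DESeq2 on all libraries put 8 members past the adjusted threshold. The number with any difference among the 4 groups went from 12 to 20 with upper-quartile scaling, 21 with total counts and 26 with DESeq2.

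With the replicate number as a block, the numbers were 14, 1, 5, 32 and 25 in the order above and 11 for any difference; against 11, 4, 9, 40, 28 and 12 without it. The block changed no call at the adjusted threshold.

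Leaving out 1 library at a time gave 2 to 11 members and medians of 0.0804 to 0.353 in model against control, 0 to 8 members and 0.151 to 0.341 in Rhy against model, 0 to 18 and 0.156 to 0.271 in DXM against model, 15 to 48 and 0.363 to 0.601 in Rhy against control, 10 to 33 and 0.310 to 0.579 in DXM against control, and 7 to 27 for any difference. No member passed the adjusted threshold in these fits.

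Differences of paralog ratios (log2), none of them past a test, changed sign without single libraries. They ran from -0.283 to 0.277 for Rps27l to Rps27 in model against control and -0.419 to 0.141 in Rhy against control, from -0.290 to 0.0853 for Rpl22l1 to Rpl22 in Rhy against control and -0.254 to 0.370 in DXM against model, from -0.0901 to 0.437 for Rpl7l1 to Rpl7 in DXM against control, and from -0.438 to 0.188 for Rpl36al to Rpl36a in DXM against model; a pseudocount of 1 CPM gave -0.0414 for that pair in DXM against control. The log2 fold change of Rpl26 in DXM against model ran from -4.11 to 0.0223. Joining members with genes of shared sequence and leaving out mitochondrial genes, both chosen after seeing the data, moved none of these numbers of members by over 1.5 times.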
